A study of Mus musculus with 6 samples.

Results

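Axon guidance ligands and receptors were read from vomeronasal organs (VNOs) of mice at postnatal day 17. They are the genes whose symbols belong to the semaphorin (Sema), plexin (Plxn), neuropilin (Nrp), Eph receptor (Epha, Ephb), ephrin (Efna, Efnb), Slit, Robo, netrin (Ntn) and Unc5 families, together with Dcc. Plexin and Unc5 symbols were taken with the letter that follows the family name, and Slitrk, Ntng, Unc50 and Unc5cl were left out. Of the 22180 genes tested, 67 were members: 34 ligands and 33 receptors. RefSeq lists 69 protein-coding genes with such symbols, and the others had no probe set assigned to them alone. The VNO, a chemosensory organ in the nasal septum, was profiled on 6 Affymetrix arrays, 1 per sample, with 3 samples labelled wild-type and 3 labelled AP-2e null. Tfap2e encodes AP-2e, a DNA-binding regulator of transcription. The sources used here do not state the kind of null allele, the strain or the number of animals per sample. The samples are called biological replicates in their titles, but where they do not come from separate animals, p-values measure only the spread between these samples.

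Guidance molecules steer growing axons by attraction or repulsion. Secreted class 3 semaphorins bind neuropilins, which signal through plexins. Slit proteins repel axons through Robo receptors, ephrins act between touching cells through Eph receptors, and netrins attract through Dcc or repel through Unc5 receptors. VNO neurons project to the accessory olfactory bulb, where axons of the apical class, which make Nrp2, end in the anterior part and axons of the basal class, which make Robo2, end in the posterior part.

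All values are log2 signals of whole-organ RNA, and a difference is AP-2e null minus wild-type with its standard error (SE). Values per array are given in the order of replicates 1, 2 and 3. Tfap2e itself read 6.46, 6.76 and 6.92 in wild-type and 5.97, 6.09 and 6.04 in AP-2e null VNOs. The groups did not overlap, and the adjusted p was 0.431 in limma. Where its probes lie with respect to the null allele is unknown here. Of 8 markers of mature sensory neurons, 7 lay above the upper quartile of all signals, 7.002, and Trpc2, the transduction channel, lay just under it. Wild-type replicate 3 had the lowest mean correlation with the other arrays, 0.973 against 0.978 to 0.981. AP-2e null replicate 2 stood apart in its cartilage markers, with a mean signal of 8.24 over 8 genes against 5.97 to 6.28 on the other arrays. Precision is limited by how few arrays there are.

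The guidance genes as a set differed little between the genotypes. In AP-2e null VNOs 31 of the 67 genes had lower and 36 had higher means, a split that was 37 to 30 with median centring of the arrays. In limma 0 passed a Benjamini-Hochberg adjusted p under 0.05, against 0.216% of all genes that passed lower and 0.00902% that passed higher. At an unadjusted p under 0.05 in limma, 2 members (Robo2 and Efna3) were lower, where the share of all genes was 2.49%, and 1 member (Dcc) was higher, where it was 1.9%. The plain one-way test without moderation called 0 members after adjustment, and at an unadjusted p under 0.05 it left Robo2 alone. Values did not overlap for 2 lower members, Robo2 and Efna3, and 3 higher members, Sema6d, Plxnc1 and Sema5b. The shares of all genes without overlap were 3.64% lower and 3.42% higher, so the members' counts of 2.99% and 4.48% lay near the background.

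The median difference of the members was 0.02, and over all genes it was -0.00. Taken without sign, the median difference was 0.0893 for the members and 0.0858 for all genes. The largest differences were -0.49 for Robo2 and 0.35 for Plxnc1, so no member differed by more than 0.5. The 95% interval of the difference lay inside a 2-fold change in either direction for all 67 members, as it did for 94.6% of all genes. It lay inside 1.5-fold for 61 members, which is 91.0% of them against 78.7% of all genes. With each array left out in turn, 39 members kept the sign of their difference and 28 did not. The 6 members outside 1.5-fold were Robo2, Unc5a, Unc5c, Plxnc1, Plxna1 and Slit1, and for these a change of 1.5-fold is within the interval. Signals of the set were mostly well above the low end of the arrays: 39 members lay above the upper quartile, and 1, Dcc, lay under the lower quartile of 3.62.

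**Figure D1:**
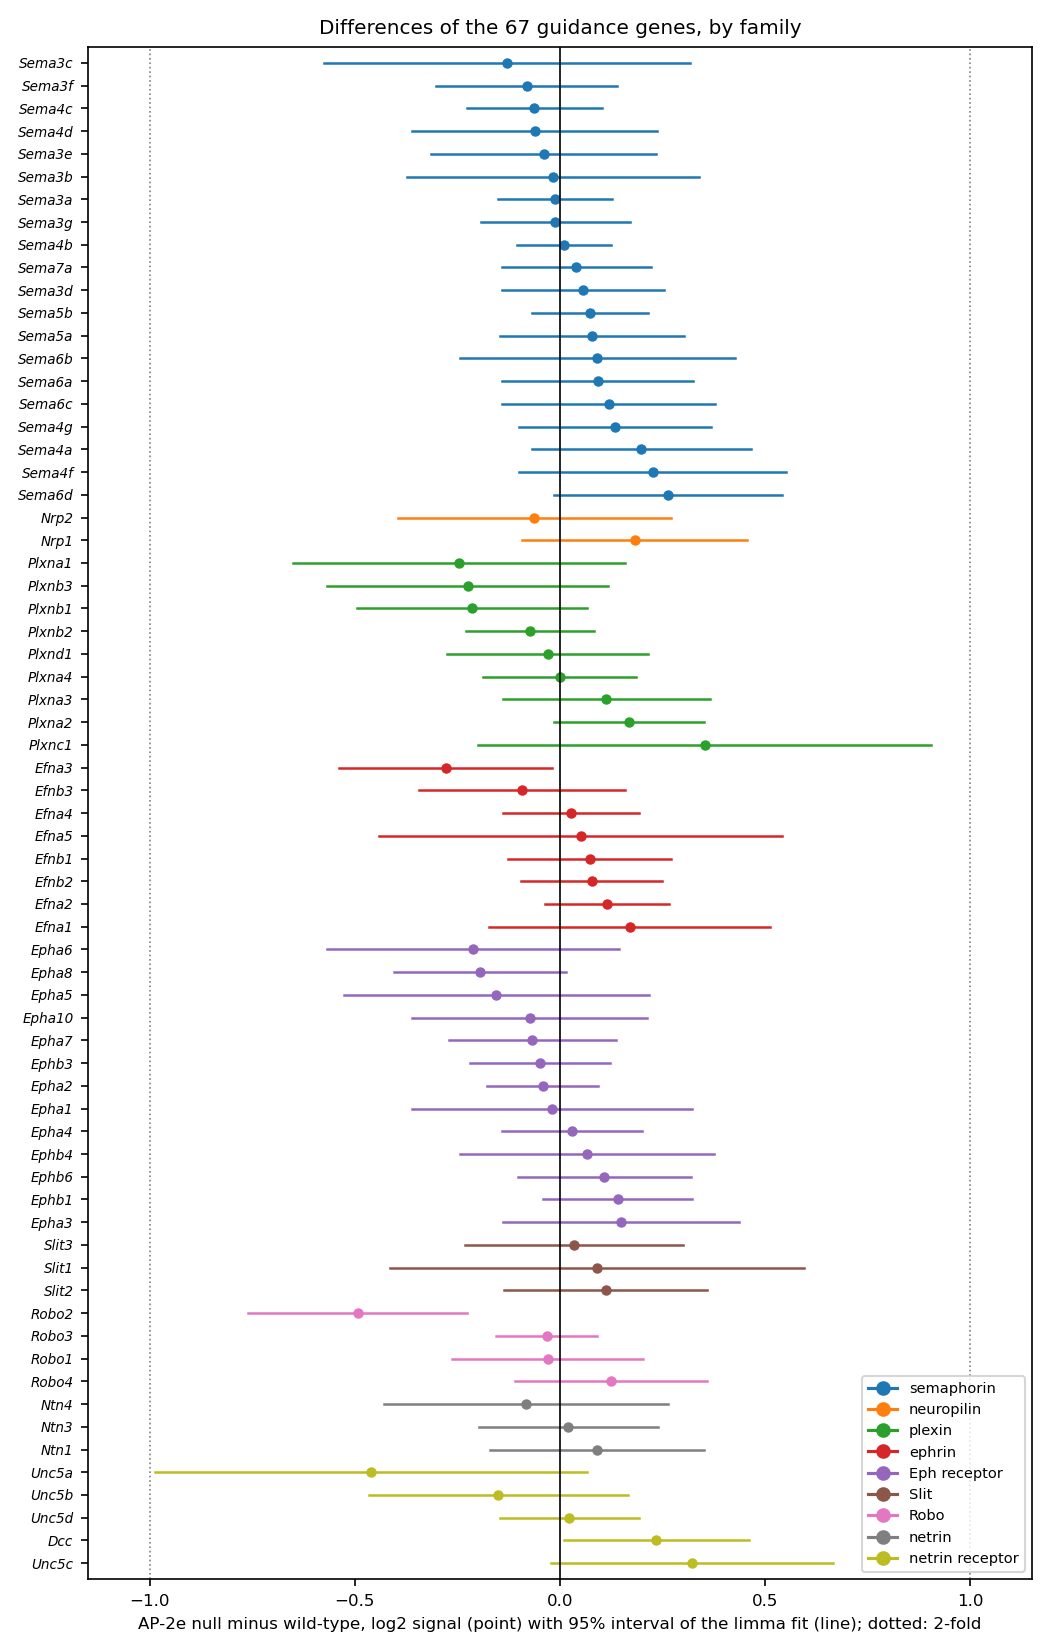
Differences in log2 signal (AP-2e null minus wild-type, x axis) of the 67 guidance genes, grouped by family (y axis), with points for the estimate and lines for the 95% interval of the limma fit over 3 arrays a genotype. Every interval lies between the dotted lines at 2-fold, and those of Robo2, Efna3 and Dcc do not include 0.

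Among the receptors of the Slit proteins, Robo2 had the smallest p of all 67 genes. Robo2 read 9.14, 9.19 and 9.49 on the wild-type arrays and 8.78, 8.85 and 8.71 on the AP-2e null arrays. Every AP-2e null value lay below every wild-type value, and wild-type replicate 3 was the highest. The means were 9.27 ± 0.19 and 8.78 ± 0.07 (SD, n = 3 each). The difference of -0.49 (SE 0.11) corresponds to 0.710 of the wild-type signal, with a 95% interval from 0.590 to 0.855. In limma the unadjusted p was 0.00439, which put Robo2 at rank 133 of 22180 genes, and the adjusted p was 0.732, so the gene did not pass over all genes.

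Leaving out wild-type replicate 3 gave -0.39 (SE 0.06, adjusted p = 0.320 in limma), and the difference lay between -0.56 and -0.39 over all 15 alternatives. In each of them the unadjusted p of limma or of the plain test was under 0.05, between 0.00277 and 0.0197, and the adjusted p was between 0.320 and 0.942.

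The 250 bases before each annotated start of Robo2 are shown because this gene was the guidance receptor with the smallest p, and that of its paralogue Robo1 is shown beside them. They come from RefSeq (build GRCm38.p6) and run 5′ to 3′ along the gene, and capitals would mark the palindrome GCCNNNGGC, to which AP-2 proteins are known to bind. The letters were searched on both strands, which for this palindrome are the same.
Robo2 start at chr16:74411826-74412075, minus strand: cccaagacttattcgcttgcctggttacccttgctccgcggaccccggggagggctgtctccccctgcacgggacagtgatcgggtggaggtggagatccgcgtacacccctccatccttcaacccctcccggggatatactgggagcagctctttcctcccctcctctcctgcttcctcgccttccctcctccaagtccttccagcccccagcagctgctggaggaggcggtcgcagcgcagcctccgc
Robo2 start at chr16:75092771-75093020, minus strand: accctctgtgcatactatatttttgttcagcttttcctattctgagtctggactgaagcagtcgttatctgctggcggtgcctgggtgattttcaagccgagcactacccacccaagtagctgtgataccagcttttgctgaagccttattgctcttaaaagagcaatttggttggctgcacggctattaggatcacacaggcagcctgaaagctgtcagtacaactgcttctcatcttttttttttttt
Robo2 start at chr16:75447294-75447543, minus strand: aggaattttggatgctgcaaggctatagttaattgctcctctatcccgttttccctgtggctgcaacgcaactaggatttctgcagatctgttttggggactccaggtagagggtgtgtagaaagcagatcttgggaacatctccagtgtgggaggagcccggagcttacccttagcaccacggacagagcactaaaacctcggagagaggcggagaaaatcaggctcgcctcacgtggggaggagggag
Robo1 start at chr16:72662899-72663148, plus strand: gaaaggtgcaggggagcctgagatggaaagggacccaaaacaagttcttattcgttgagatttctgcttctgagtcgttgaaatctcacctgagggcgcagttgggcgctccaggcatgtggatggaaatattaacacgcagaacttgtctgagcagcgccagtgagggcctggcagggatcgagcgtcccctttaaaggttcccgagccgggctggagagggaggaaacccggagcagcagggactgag
None of these 4 windows holds the palindrome. Their G and C content was 65.6%, 44.8%, 53.2% and 56.0% in the order printed. That the letters are absent says only that they are not in these windows.

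The other Robo genes had smaller differences than Robo2, and their values overlapped between genotypes. Robo1, which like Robo2 binds Slit proteins on axons, read 9.40, 9.21 and 9.55 in wild-type and 9.38, 9.36 and 9.33 in AP-2e null VNOs. These values overlap, with a difference of -0.03 (SE 0.09, 95% interval -0.26 to 0.20), and without wild-type replicate 3 it was 0.05. Taken per array, the Robo2 signal minus the Robo1 signal went from -0.12 ± 0.13 to -0.58 ± 0.06 (SD, n = 3 each), and the change of -0.46 had an exact 2-sided permutation p of 0.1. With 3 arrays a genotype no smaller p can be reached. This pair was chosen after its values were seen, and it compares the changes of the 2 genes, not their levels. Robo3, the receptor of commissural axons, differed by -0.03 (SE 0.05), and Robo4, a receptor of endothelial cells, by 0.12 (SE 0.09).

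With all arrays kept, the ligands of these receptors showed no difference beyond their spread. Slit1 read 6.46, 6.23 and 7.02 in wild-type and 6.68, 6.66 and 6.64 in AP-2e null VNOs, so the wild-type arrays lay on both sides of the AP-2e null arrays. Its difference was 0.09 (SE 0.20), and it was 0.31 (SE 0.09, adjusted p = 0.598 in limma) when wild-type replicate 3 was left out and -0.08 when wild-type replicate 2 was. Over the 15 alternatives the unadjusted p of Slit1, in limma or the plain test, lay between 0.0183 and 0.891. It was under 0.05 in 1 of them. Slit2 read 9.26, 8.99 and 9.05 against 9.34, 9.13 and 9.15, a difference of 0.11 (SE 0.10). Slit3 read 8.71, 8.47 and 8.83 against 8.74, 8.61 and 8.77, a difference of 0.03 (SE 0.11). The 3 Slit genes overlapped between genotypes, and the sign of Slit3 turned with median centring.

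**Figure D2:**
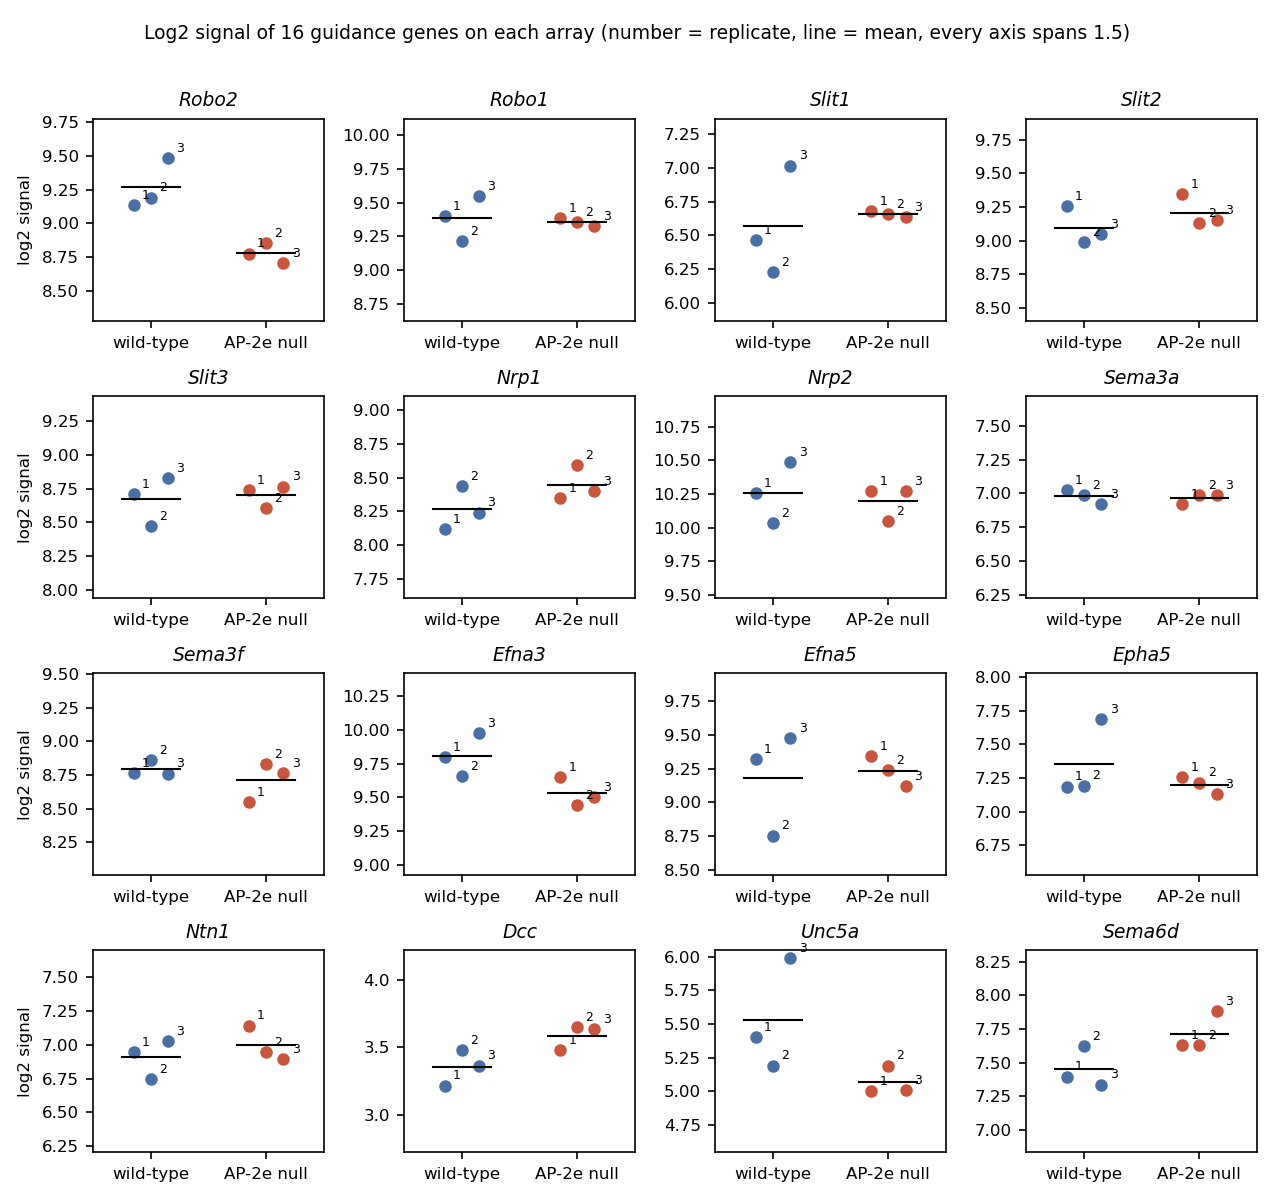
Log2 signal (y axis, each spanning 1.5) of 16 guidance genes on the 3 wild-type and 3 AP-2e null arrays, with the replicate number beside each point and a line at the group mean. The 3 AP-2e null points of Robo2, between 8.71 and 8.85, lie under all its wild-type points, while Robo1, the Slit genes and both neuropilins overlap.

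Robo2 is made by basal neurons, and other genes of that class were lower on the same arrays. Gnao1, the G protein subunit of basal neurons, read 10.45, 10.38 and 10.77 in wild-type and 9.79, 9.88 and 9.90 in AP-2e null VNOs, a difference of -0.68 (SE 0.11). Calr4, a calreticulin-like chaperone, differed by -1.10 (SE 0.15) and the adhesion gene Kirrel3 by -0.50 (SE 0.17), while the gamma subunit gene Gng8 stood at 0.06 (SE 0.15). Of these 4 basal markers, 3 were lower without overlap between genotypes, as were 3.64% of all genes, and 0 passed over all genes in limma. The list was chosen with earlier results of these data known, so this count is no independent support. The mean signal of the list ranged from 9.54 to 9.76 in wild-type and from 8.98 to 9.14 in AP-2e null VNOs. The Robo2 signal minus the Gnao1 signal, again chosen after the values were seen, changed by 0.18 (exact 2-sided permutation p = 0.2). In whole-organ RNA, fewer cells of a type and less RNA per cell cannot be told apart, and the part of the basal neurons' share in the Robo2 difference was not tested.

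Nrp2, the neuropilin of apical VNO axons and receptor of Sema3f, read 10.26, 10.03 and 10.49 in wild-type and 10.27, 10.05 and 10.27 in AP-2e null VNOs. All AP-2e null arrays lay within the wild-type range, and the difference was -0.06 (SE 0.13, 95% interval -0.40 to 0.27). It was 0.05 without wild-type replicate 3 and 0.01 without AP-2e null replicate 2. The Robo2 signal minus the Nrp2 signal went from -0.99 ± 0.14 to -1.42 ± 0.19 (SD, n = 3 each). The change was -0.43 (exact 2-sided permutation p = 0.1, the smallest possible here). This pair too was chosen after its values were seen, so its p is no independent support. The 6 apical markers beside Nrp2 differed by between -0.35 (Kirrel2) and 0.36 (Gng2), and 0 of them passed over all genes in limma. At an unadjusted p under 0.05 in limma, 2 of the apical markers were higher and 1 was lower. The shares of all genes were 1.9% higher and 2.49% lower. This list too was chosen with earlier results of these data known.

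**Figure D3:**
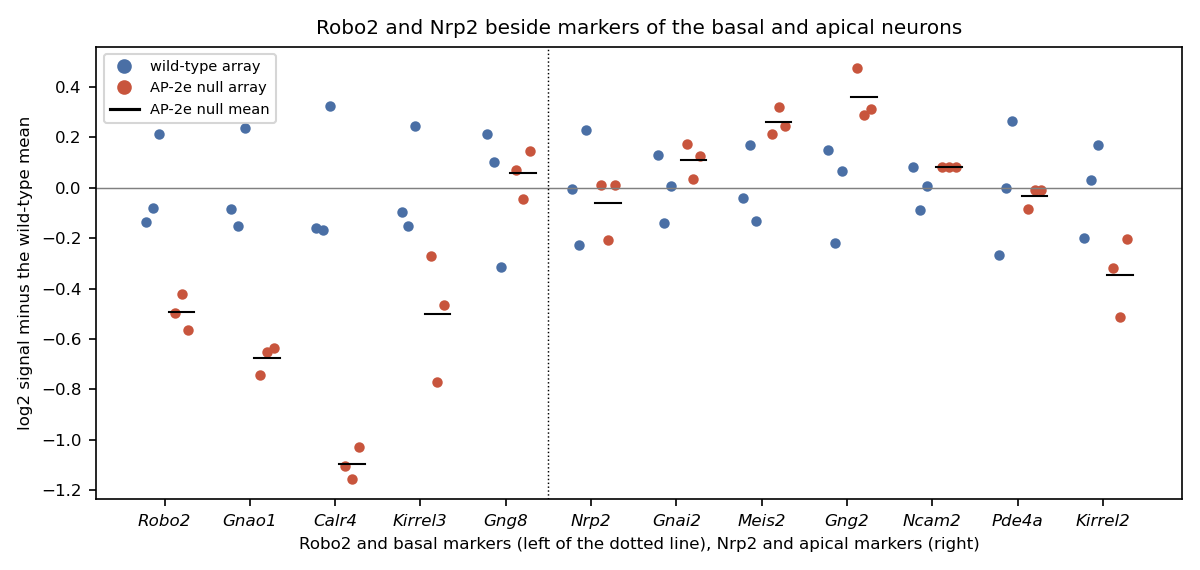
Log2 signal minus the wild-type mean (y axis) of Robo2 and 4 basal markers, left of the dotted line, and of Nrp2 and 6 apical markers, right of it, with 1 point per array and a line at the AP-2e null mean. Robo2, Gnao1, Calr4 and Kirrel3 have every AP-2e null array below every wild-type array, and Nrp2 overlaps.

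Nrp1, the receptor of Sema3a and of vascular growth factor, read 8.12, 8.44 and 8.24 in wild-type and 8.35, 8.59 and 8.40 in AP-2e null VNOs. The highest wild-type array lay among the AP-2e null arrays, and the difference was 0.18 (SE 0.11, 95% interval -0.09 to 0.46). Endothelial cells also make Nrp1 and Robo4. Of 8 endothelial markers, 7 had higher and 1 a lower mean in AP-2e null VNOs. In limma 0 of them had an unadjusted p under 0.05, where the shares of all genes were 2.49% lower and 1.9% higher. Only Pecam1 did not overlap between genotypes, being higher, as were 3.42% of all genes. The mean signal of the 8 markers ranged from 7.28 to 7.54 in wild-type and from 7.44 to 7.56 in AP-2e null VNOs, and its part in the values of Nrp1 was not tested. Higher means were not particular to endothelial markers. Of 7 fibroblast markers 5 were higher, as were 5 of 7 smooth muscle and pericyte markers. All 6 multiciliated and all 6 skeletal muscle markers were lower.

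The 20 semaphorins, the largest family of ligands here, had 8 lower and 12 higher means (9 and 11 with median centring), and 0 passed. Of the 7 secreted class 3 semaphorins 6 were lower, from -0.13 (Sema3c) to 0.06 (Sema3d). The difference of Sema3c was -0.31 without AP-2e null replicate 2, the array with high cartilage markers, and -0.01 without AP-2e null replicate 3, and the part of cartilage in it was not tested. Sema3a, a repellent that acts through Nrp1, read 7.03, 6.99 and 6.92 in wild-type and 6.92, 6.99 and 6.99 in AP-2e null VNOs. The genotypes covered nearly the same range, and the difference was -0.01 (SE 0.06, 95% interval -0.15 to 0.13). Sema3f, the repellent that acts through Nrp2, read 8.76, 8.86 and 8.76 against 8.55, 8.83 and 8.76. Only AP-2e null replicate 1 stood below the others, and the difference of -0.08 (SE 0.09) was 0.00 without it.

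All 4 class 6 semaphorins, which bind A plexins without a neuropilin, had higher means, and so they did under the 3 other scalings of the arrays. Sema6d read 7.40, 7.62 and 7.34 in wild-type and 7.63, 7.63 and 7.88 in AP-2e null VNOs. The groups did not overlap, though the highest wild-type array came close to the lowest AP-2e null arrays, a pair that hold the same value. The difference was 0.26 (SE 0.11, unadjusted p = 0.0589 in limma), and it was 0.18 to 0.35 with single arrays left out. Sema6a at 0.09, Sema6b at 0.09 and Sema6c at 0.12 overlapped, and Sema6b was -0.06 without wild-type replicate 1. Class 4 had 4 of 6 higher (3 of 6 with median centring), from -0.06 (Sema4c) to 0.23 (Sema4f), and Sema5a at 0.08, Sema5b at 0.07 and Sema7a, a lipid-anchored ligand, at 0.04 were close to 0. Sema5b did not overlap between genotypes, with 5.28 to 5.40 in wild-type and 5.41 to 5.47 in AP-2e null VNOs.

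Plexins, the signalling receptors of semaphorins, numbered 9, of which 6 were lower and 3 higher, and 0 passed. Plxnc1, the plexin that binds Sema7a, had the largest positive difference of the 67 genes, 0.35 (SE 0.22). It read 6.61, 5.87 and 6.58 in wild-type and 6.89, 6.61 and 6.61 in AP-2e null VNOs. Wild-type replicate 2 stood far below the other arrays, and without it the difference was 0.11 (SE 0.11). All 3 B plexins, whose ligands include class 4 semaphorins, were lower under each scaling tried: Plxnb1 by -0.21 (SE 0.11), Plxnb2 by -0.07 (SE 0.06) and Plxnb3 by -0.22 (SE 0.14). Leaving out wild-type replicate 3 changed Plxnb1 to -0.10, and leaving out AP-2e null replicate 2 changed Plxnb3 to -0.12 (-0.14 without wild-type replicate 2). The A plexins, partners of the neuropilins, split, with Plxna1 at -0.25 and Plxna4 at -0.00 against Plxna2 at 0.17 and Plxna3 at 0.11. Plxna1 was -0.13 when wild-type replicate 3 was left out and -0.40 when wild-type replicate 2 was. Plxnd1, the receptor of Sema3e, differed by -0.03, and Sema3e itself by -0.04. Plxna1 and Plxnb1 each had a further probe set, which gave -0.20 (SE 0.13) for Plxna1 and 0.30 (SE 0.21) for Plxnb1, the opposite sign.

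Efna3, a lipid-anchored ephrin, was the ligand with the smallest p. Efna3 read 9.80, 9.65 and 9.98 in wild-type and 9.65, 9.44 and 9.50 in AP-2e null VNOs. The groups did not overlap, but wild-type replicate 2 at 9.655 and AP-2e null replicate 1 at 9.652 were nearly equal. The difference was -0.28 (SE 0.10), or 0.824 of the wild-type signal with a 95% interval from 0.689 to 0.987. In limma the unadjusted p was 0.0393 and the adjusted p 0.873, and over all 15 alternatives the adjusted p was between 0.779 and 0.942. The difference was -0.20 without wild-type replicate 3 and lay between -0.36 and -0.20 with single arrays left out. Its unadjusted p in limma was above 0.05 without wild-type replicate 1 or 3, and likewise without AP-2e null replicate 2 or 3. Of the 8 markers of mature sensory neurons 5 were lower and 3 higher on the same arrays, from -0.41 for Omp (-0.22 without wild-type replicate 3) to 0.44 for Rtp1. Their mean signal ranged from 9.15 to 9.26 in wild-type and from 9.09 to 9.16 in AP-2e null VNOs, and the part of these cells in the Efna3 difference was not tested.

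The windows before the 2 annotated starts of Efna3 (RefSeq, GRCm38.p6) are shown because it was the lower ligand without overlap, and capitals mark the palindrome GCCNNNGGC.
Efna3 start at chr3:89321769-89322018, minus strand: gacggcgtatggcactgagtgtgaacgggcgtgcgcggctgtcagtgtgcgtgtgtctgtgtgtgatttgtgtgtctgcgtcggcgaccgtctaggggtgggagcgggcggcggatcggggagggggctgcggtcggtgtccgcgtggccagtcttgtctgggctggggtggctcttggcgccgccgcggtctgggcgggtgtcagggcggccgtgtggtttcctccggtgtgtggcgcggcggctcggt
Efna3 start at chr3:89322940-89323189, minus strand: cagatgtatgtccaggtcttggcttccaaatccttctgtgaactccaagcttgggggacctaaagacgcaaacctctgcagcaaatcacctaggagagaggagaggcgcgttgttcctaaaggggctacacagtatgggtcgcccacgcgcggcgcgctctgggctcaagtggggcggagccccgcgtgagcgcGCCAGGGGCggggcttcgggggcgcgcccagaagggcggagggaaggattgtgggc
The second of these windows holds the palindrome once, as GCCAGGGGC beginning 56 bases before the start. Over the members, 57 of 67 had an entry in the RefSeq promoter table. Of these 57, 15 (26.3%) held the palindrome in at least 1 window, against 4163 of all 27025 genes listed there (15.4%). By window, the palindrome was in 15 of the members' 73 (20.5%), against 13.7% of all 32851 windows of the same length. The members' windows were richer in G and C, at a mean of 63.4% against 53.2%, and the palindrome is made of these bases. A match is a description and shows no binding.

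The other ephrins and their receptors varied little. Of the 8 ephrins 2 were lower and 6 higher (3 and 5 with median centring), with 0 past the threshold. Of the 13 Eph receptors 8 were lower and 5 higher (9 and 4 with median centring), again with 0 past it. Efna5, an ephrin found on VNO axons, read 9.32, 8.75 and 9.47 in wild-type and 9.34, 9.24 and 9.12 in AP-2e null VNOs. Wild-type replicate 2 was the lowest array and wild-type replicate 3 the highest, so the difference of 0.05 (SE 0.20) was well inside the wild-type spread, and it was -0.17 without wild-type replicate 2. Epha5, a receptor of A ephrins, read 7.19, 7.19 and 7.69 against 7.25, 7.21 and 7.13. Only wild-type replicate 3 stood apart, and the difference of -0.16 (SE 0.15) was 0.01 without it.

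The Eph receptors lay between -0.21 (Epha6) and 0.15 (Epha3). Epha6 was -0.10 without wild-type replicate 3 and -0.10 without AP-2e null replicate 3, and Epha3 was 0.03 without AP-2e null replicate 1. Epha8 had the smallest p among them, at 4.77, 4.87 and 4.63 against 4.47, 4.58 and 4.63, a difference of -0.20 (SE 0.08, unadjusted p = 0.0621 in limma). Its unadjusted p was under 0.05 with median centring, repeated quantile normalization, cyclic loess and array weights. Its groups met at 4.63, a value that wild-type replicate 3 and AP-2e null replicate 3 share. Epha4, which binds ephrins of both classes, differed by 0.03 (SE 0.07), and the B ephrins Efnb1, Efnb2 and Efnb3 differed by 0.07, 0.08 and -0.09.

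Of the 3 netrins 1 was lower and 2 higher, the reverse with median centring and with repeated quantile normalization, and none differed beyond its spread. Ntn1, the netrin that attracts axons through Dcc, read 6.95, 6.75 and 7.03 in wild-type and 7.14, 6.95 and 6.90 in AP-2e null VNOs, a difference of 0.09 (SE 0.10). Ntn3 differed by 0.02 (SE 0.09) and Ntn4, a netrin of basement membranes, by -0.08 (SE 0.14). The 3 netrins overlapped between genotypes.

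Among the netrin receptors, Dcc read 3.21, 3.48 and 3.36 in wild-type and 3.48, 3.65 and 3.63 in AP-2e null VNOs. Wild-type replicate 2 and AP-2e null replicate 1 held the same value, so the groups touched. The difference was 0.23 (SE 0.09), with an unadjusted p of 0.0441 and an adjusted p of 0.873 in limma (between 0.779 and 0.942 over its 14 alternatives). Both means, 3.35 ± 0.13 and 3.59 ± 0.09 (SD, n = 3 each), lay under the lower quartile of all signals, 3.62, where signal is hard to tell from background. Of the Unc5 receptors, which carry the repellent answer to netrins, 2 were lower and 2 higher (3 and 1 with median centring or repeated quantile normalization). Unc5a read 5.40, 5.19 and 5.99 against 4.999, 5.19 and 5.01, and its difference of -0.46 (SE 0.21, adjusted p = 0.873 in limma) was -0.23 (SE 0.10) without wild-type replicate 3. Unc5c read 6.30, 5.99 and 6.18 against 6.41, 6.72 and 6.30, with a difference of 0.32 (SE 0.14, adjusted p = 0.873 in limma). Unc5b and Unc5d differed by -0.15 and 0.02.

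Across the 67 genes the wild-type arrays spread more than the AP-2e null arrays. The SD of the wild-type arrays was the larger for 43 members (64.2%), against 55.9% of all genes, and the median SD was 0.14 against 0.104. Wild-type replicate 3 was the single highest array for 23 members, and the other arrays were so for between 4 and 14. Wild-type replicate 2 was the single lowest for 19 members, and the others for between 6 and 14. Plxna1, Epha5, Epha6, Slit1, Robo2 and Unc5a are among the members highest in wild-type replicate 3, as the map of centred values shows. For 39 members (58.2%) at least 2 arrays carry exactly the same value, as they do for 53.6% of all genes, and Sema4b held 1 value on 5 of its 6 arrays.

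**Figure D4:**
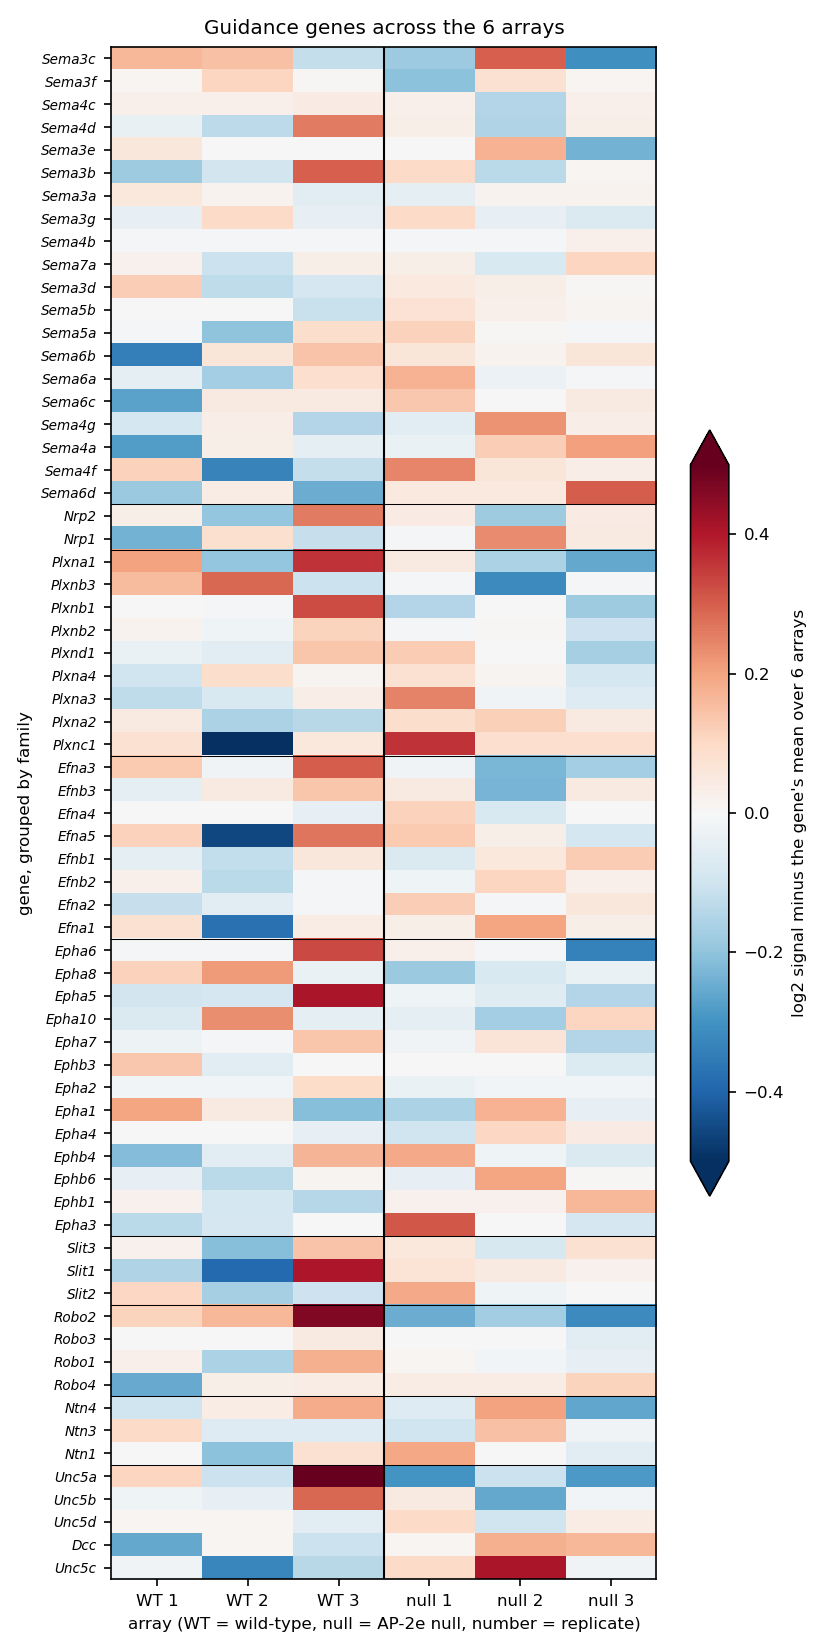
Log2 signal minus each gene's mean over the 6 arrays (colour, with values beyond 0.5 at the end colours) for the 67 guidance genes (rows, by family, with lines between families) on each array (columns). In the row of Robo2 all 3 wild-type arrays lie above and all 3 AP-2e null arrays below its mean, and the column of wild-type replicate 3 holds the highest value of 23 genes.

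By the summed distance of centred log2 values over the 6 arrays, the members most like Robo2 were Unc5a, Efna3 and Plxnb1, at a mean distance of 0.109, 0.131 and 0.140 per array. Those most like Nrp2 were Sema4d, Slit3 and Unc5b, at 0.0299, 0.0485 and 0.0616. Robo2 had no neighbour as close as those of Nrp2. The distances were not scaled to each gene's own spread, so this does not show that the pattern of Robo2 is more distinct.

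The genes that act downstream of these receptors or beside them were read from 2 lists. Of 33 measured signalling partners, which include the collapsin response mediators (Dpysl genes and Crmp1) and the Slit-Robo GTPase-activating proteins (Srgap genes), 14 were lower and 19 higher. In limma 0 passed and 0 had an unadjusted p under 0.05, where the shares of all genes were 2.49% lower and 1.9% higher. All 33 intervals lay inside 1.5-fold, as did 78.7% of those of all genes. Values did not overlap for 2 higher partners, Crmp1 and Mical1 (6.06% against 3.42% of all genes), and for 0 lower ones (3.64% of all genes). The differences of the 33 partners ran from -0.22 (Rnd1, a GTPase that binds plexins) to 0.19 (Mical1, an oxidoreductase that acts on actin below plexins). Of the partners of Robo receptors, Srgap1 differed by -0.18 (SE 0.13), Srgap2 by 0.01 (SE 0.08) and Srgap3 by 0.08 (SE 0.11). Of 20 other guidance cues, receptors and axonal adhesion genes, 5 were lower and 15 higher, again with 0 past the threshold and 0 at an unadjusted p under 0.05 in limma. Cxcl12, a chemokine that guides cells and axons, was nearest to it at 0.31 (SE 0.13, unadjusted p = 0.0563 in limma), its receptor Cxcr4 stood at 0.23 (SE 0.12), and Flrt1 stood at -0.30 (SE 0.29), or -0.02 without wild-type replicate 3.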

How the data were processed

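The deposited table holds log2 signals per probe set, which the authors made with RMA and Transcriptome Analysis Console, per the submitters' processing notes. For versions, settings and genome build the sources used here give nothing. Of 41345 probe sets, 23521 had 1 gene in the platform annotation, 1814 several and 16010 none. RefSeq Entrez IDs matched 23328 and changed 0 symbols. The probe set with the highest mean stood for a gene, which gave 22180 genes, with 3 members having 2 probe sets.

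The genotypes were tested per gene in R 4.3.3 by lmFit and eBayes of limma 3.58.1 (2-sided, no covariate), with Benjamini-Hochberg adjustment over all genes and a threshold of 0.05. Intervals are the fit's 95% intervals. The fit was tested on simulated data. Values per array are given for members with unadjusted p under 0.05 and 13 listed members (Nrp1, Nrp2, Robo1, Robo2, Slit1 to Slit3, Sema3a, Sema3f, Efna5, Epha5, Ntn1, Dcc). Unc5a, Unc5c, Sema5b, Sema6d, Plxnc1 and Epha8 were added after their values were seen, as were the pairs of Robo2 with Robo1, Nrp2 and Gnao1. Members and lists were chosen with earlier results of these data known. Alternatives were other moderation, probe-set choice, dim filter, scaling, array weights, a plain one-way test, a replicate block and leaving out each array. Promoter windows came from RefSeq (GRCm38.p6). Plots used matplotlib 3.10.9 in Python 3.11.15.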

Additional observations from a re-analysis of the deposited data

How the results depend on the processing

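In each of the 16 alternatives 0 members passed over all genes in either direction. At an unadjusted p under 0.05 the count of lower members (2) was 1 with the plain one-way test (Robo2), 3 (with Epha8) with median centring, repeated quantile normalization, cyclic loess and array weights, and 1 to 4 with single arrays left out, being 1 without AP-2e null replicate 2 or 3, 1 if wild-type replicate 1 was left out and 4 if wild-type replicate 2 was. The count of higher members (1) was 0 with median centring, repeated quantile normalization, trend and robust moderation, the plain test and without the dimmest 30% of genes (which leaves out Dcc), and 0 to 2 with single arrays left out, being 0 without AP-2e null replicate 2 and 2 without wild-type replicate 1 or 2. Lower members without overlap (2) were 4 with cyclic loess and 4 with repeated quantile normalization, and 2 to 7 with single arrays left out (4 without wild-type replicate 3, 5 without AP-2e null replicate 2, 7 without wild-type replicate 2). Higher ones (3) were 6 with cyclic loess and 5 to 9 with single arrays left out (9, 7 and 8 without wild-type replicates 1, 2 and 3, and 6, 5 and 5 without those of the null group), where fewer arrays overlap less by construction. This holds for the lower ones as well. The cause of the other shifts was not tested. The shares of all genes given earlier belong to the main fit on all arrays. They are not the background of these counts. The share of all genes in each alternative is not given here, so the counts alone do not tell whether members were in excess. The sign of Slit3 turned with median centring (-0.00068), and with single arrays left out the differences of Slit1 ran from -0.0817 to 0.314, Slit3 from -0.0635 to 0.114, Sema3a from -0.0412 to 0.0117, Sema3f from -0.139 to 0.00106, Efna5 from -0.165 to 0.196, Epha5 from -0.240 to 0.0102, Nrp2 from -0.175 to 0.0517 and Robo1 from -0.117 to 0.0503. Robo2, Efna3, Dcc, Nrp1, Slit2, Ntn1, Unc5a, Unc5c, Sema6d and Plxnc1 kept their sign in every alternative run. Of the 67 members, 61 kept their direction under all 3 other scalings.

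The sample titles do not say whether replicate numbers pair the samples. Same-numbered arrays correlated in their deviations from the group means at 0.04, 0.11 and 0.02 across genes. Arrays with different numbers correlated at between -0.193 and 0.122. With the replicate block 0 members passed, and 22 genes in all passed lower against 48 without it. At an unadjusted p under 0.05 in limma with the block, 2 members were lower and 2 (Dcc and Nrp1) higher. The share of all genes at that p is not given here, so these counts do not tell of an excess. The number of arrays, 3 a genotype, limits what could be seen, and signals near the lower quartile may understate differences.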
